A study of Mus musculus with 53 samples.

Results

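The genes examined here encode the enzymes, and 1 helper protein, that turn arachidonic acid into prostaglandins, thromboxane and leukotrienes. The 10 genes were chosen by name from the 23847 loci listed for each sample: Ptgs1, Ptgs2, Ptges, Tbxas1, Hpgds, Alox5, Alox5ap, Lta4h, Ltc4s and Alox15. In macrophages given the cytokine IL-4, Ptgs1 rose 32.1-fold, Tbxas1 rose 2.68-fold, and Hpgds and Alox5 fell to 38.7% and 17.8% of their controls at 6 h. None of the 9 genes that could be tested passed the test in macrophages without STAT6, the transcription factor that IL-4 activates, where each group held 2 samples. Of the 10 genes, 9 reached 1 FPKM (a level counted in fragments, corrected for transcript length and for the size of the library) in at least 1 sample and entered the test, as did 11146 of all loci. Alox15 stayed below that level. Ptgs2 reached it only in WT samples with IL-4, so it entered the test through the group where it was high.

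Poly(A)-selected RNA was profiled by RNA-seq in bone marrow-derived macrophages (BMDMs), cells grown from mouse marrow for 6 days in L929 cell supernatant, a source of the growth factor M-CSF. Wild-type (WT) and Stat6-/- cells, both on a C57BL/6 background and from mice of 8 to 12 weeks, were left untreated or received 20 ng/ml of IL-4 for 1, 3, 6 or 24 h. Each time had untreated controls, and a further control was taken at 0 h. WT groups held 4 samples, except 3 with 24 h of IL-4, and every Stat6-/- group held 2, giving 35 and 18 samples. The deletion was present in the whole animal, so the precursor cells also lacked the gene while they differentiated in culture. The WT profiles are described as individual animals. The origin of the Stat6-/- samples is not stated, and the spread between them may be technical. The main fit used 1 estimate of spread per locus, shared by all 18 groups. Its p-values, those for WT included, therefore rest on the spread within groups of both genotypes.

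Eicosanoids are short-lived lipid signals made on demand. A phospholipase releases arachidonic acid from membranes. The cyclooxygenases encoded by Ptgs1 and Ptgs2 convert it to prostaglandin H2, which separate terminal synthases turn into prostaglandin E2 (Ptges), prostaglandin D2 (Hpgds) or thromboxane A2 (Tbxas1). In the other branch, 5-lipoxygenase (Alox5), aided by the membrane protein FLAP (Alox5ap), makes leukotriene A4, from which Lta4h produces the chemoattractant leukotriene B4 and Ltc4s the cysteinyl leukotriene C4. Alox15 encodes the lipoxygenase that makes 12- and 15-hydroperoxy acids. Macrophages are a major source of these mediators, and Ptgs2 is best known as the form that inflammatory stimuli induce.

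Totals over all loci ran from 385889 to 464915 FPKM per sample, and relative depth, recovered from loci below 1 FPKM, ranged from 0.706 to 1.55 of the median sample, with medians of 1.00 in WT and 1.01 in Stat6-/-. The absolute depth is unknown. Stat6 lay between 14.3 and 24.0 FPKM in the 18 Stat6-/- samples and between 58.7 and 90.6 FPKM in the 35 WT samples. All 6 macrophage markers examined (among them Csf1r, Cd68 and Emr1) were expressed, with a summed level between 2604 and 4469 FPKM. Each marker of T cells, B cells and fibroblasts stayed below 1 FPKM in every sample, and 4 dendritic cell markers summed to at most 1.89 FPKM. The 4 alternative polarization markers Arg1, Retnla, Chi3l3 and Mrc1, which report the response to IL-4, summed to 3904 to 5616 FPKM in WT after 24 h of IL-4 and to 98.5 to 167 FPKM in WT controls.

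All 10 genes are annotated as protein-coding. On mm10, the prostanoid genes lie at chr2:36230426-36252269 (Ptgs1), chr1:150100124-150108012 (Ptgs2), chr2:30889471-30903297 (Ptges), chr6:38918986-39084579 (Tbxas1) and chr6:65117293-65144730 (Hpgds). The lipoxygenase and leukotriene genes lie at chr6:116410071-116461178 (Alox5), chr5:149265058-149288047 (Alox5ap), chr10:93453396-93484896 (Lta4h), chr11:50236472-50238471 (Ltc4s) and chr11:70344147-70352031 (Alox15). The library kit did not mark strand, and 3 of the genes share exonic bases with a gene on the opposite strand: 26.4% of those of Ltc4s with Gm26542, 13.3% of those of Alox5ap with Gm19719, and 3.81% of those of Ptgs1 with Gm43621. Reads from these stretches cannot be assigned to 1 gene of the pair. The other 7 genes overlapped no annotated exon of another gene, and at most 1.70% of the 50-base words of their transcripts occurred in another gene.

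Promoter sequences of RefSeq (build GRCm38.p6, 250 bases before to 50 after the start, read 5' to 3' on the gene's strand) were matched by symbol for 8 of the 10 genes, all but Alox5ap and Alox15. They are printed for Ptgs1, Tbxas1, Hpgds and Alox5, the 4 genes whose response to IL-4 passed the test and reached 2-fold on log2(FPKM + 1) at more than 1 time. Capitals mark every match, on either strand, to the palindrome favoured by STAT6 (TTC and GAA, 4 bases apart), the general STAT palindrome (TTC and GAA, 3 bases apart), the PU.1 core GAGGAA and the TATA box TATAAA.

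Ptgs1 (chr2:36230176-36230475, plus strand): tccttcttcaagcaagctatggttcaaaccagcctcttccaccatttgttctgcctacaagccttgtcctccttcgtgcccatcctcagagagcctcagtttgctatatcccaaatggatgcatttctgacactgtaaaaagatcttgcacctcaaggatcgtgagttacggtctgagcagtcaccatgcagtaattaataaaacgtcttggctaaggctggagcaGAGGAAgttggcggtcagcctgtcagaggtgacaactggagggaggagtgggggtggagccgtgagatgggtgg
Tbxas1 (chr6:38918736-38919035, plus strand): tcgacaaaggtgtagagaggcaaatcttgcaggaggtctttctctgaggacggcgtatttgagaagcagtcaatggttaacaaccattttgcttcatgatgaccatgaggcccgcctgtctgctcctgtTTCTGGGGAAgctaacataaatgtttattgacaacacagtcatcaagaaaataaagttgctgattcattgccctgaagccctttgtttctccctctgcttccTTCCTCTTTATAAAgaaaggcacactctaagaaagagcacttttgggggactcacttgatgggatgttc
Hpgds (chr6:65144681-65144980, minus strand): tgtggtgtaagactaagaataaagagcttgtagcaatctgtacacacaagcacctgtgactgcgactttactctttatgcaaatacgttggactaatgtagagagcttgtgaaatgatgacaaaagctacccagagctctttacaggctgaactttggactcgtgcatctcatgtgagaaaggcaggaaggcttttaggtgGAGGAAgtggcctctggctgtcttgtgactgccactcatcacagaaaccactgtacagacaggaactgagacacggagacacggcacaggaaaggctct
Alox5 (chr6:116461129-116461428, minus strand): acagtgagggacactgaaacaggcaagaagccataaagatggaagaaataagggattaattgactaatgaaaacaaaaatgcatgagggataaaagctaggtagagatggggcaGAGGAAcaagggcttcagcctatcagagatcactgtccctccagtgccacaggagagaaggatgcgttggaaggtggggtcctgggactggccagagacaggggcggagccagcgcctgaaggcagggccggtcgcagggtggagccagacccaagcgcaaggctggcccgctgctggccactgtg

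The PU.1 core, a sequence read by the factor PU.1 that defines the macrophage lineage, was present in 8 of the 8 promoters, against 28.3% of all 32851 RefSeq promoters of this length. It began at position -24 from the start in Ptgs1, -49 in Hpgds and -136 in Alox5. The STAT6 palindrome was found in 2 of 8, against 6.95% of all promoters. In Tbxas1 it read TTCTGGGGAA and began at -121, and in Ptges it read TTCAAAAGAA and began at -197. No promoter of the 8 held the shorter STAT palindrome, which 8.30% of all promoters held. A TATA box was found in Tbxas1 only, against 13.6% of all, where it follows the PU.1 core directly and occurs on both strands in overlap, so that 1 run of capitals covers both motifs. These are matches of letters, and binding was not measured.

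Before IL-4, the 10 genes spanned a wide range of FPKM, a level per transcript length. In WT at 0 h the order was Alox5ap at 678 ± 35.5 FPKM (SD, n = 4, as for all values of this paragraph), Hpgds at 67.7 ± 10.2, Tbxas1 at 47.1 ± 5.14, Lta4h at 28.4 ± 2.16, Alox5 at 7.58 ± 0.997 and Ltc4s at 4.38 ± 0.543 FPKM. Ptgs1 followed at 1.88 ± 0.403, Ptges at 0.995 ± 0.214, Ptgs2 at 0.207 ± 0.0727 and Alox15 at 0.0437 ± 0.0227 FPKM. The samples of neighbours in this order did not overlap. The untreated macrophages thus held little RNA for either cyclooxygenase, beside abundant RNA for FLAP and for the synthases of prostaglandin D2 and thromboxane.

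**Figure D1:**
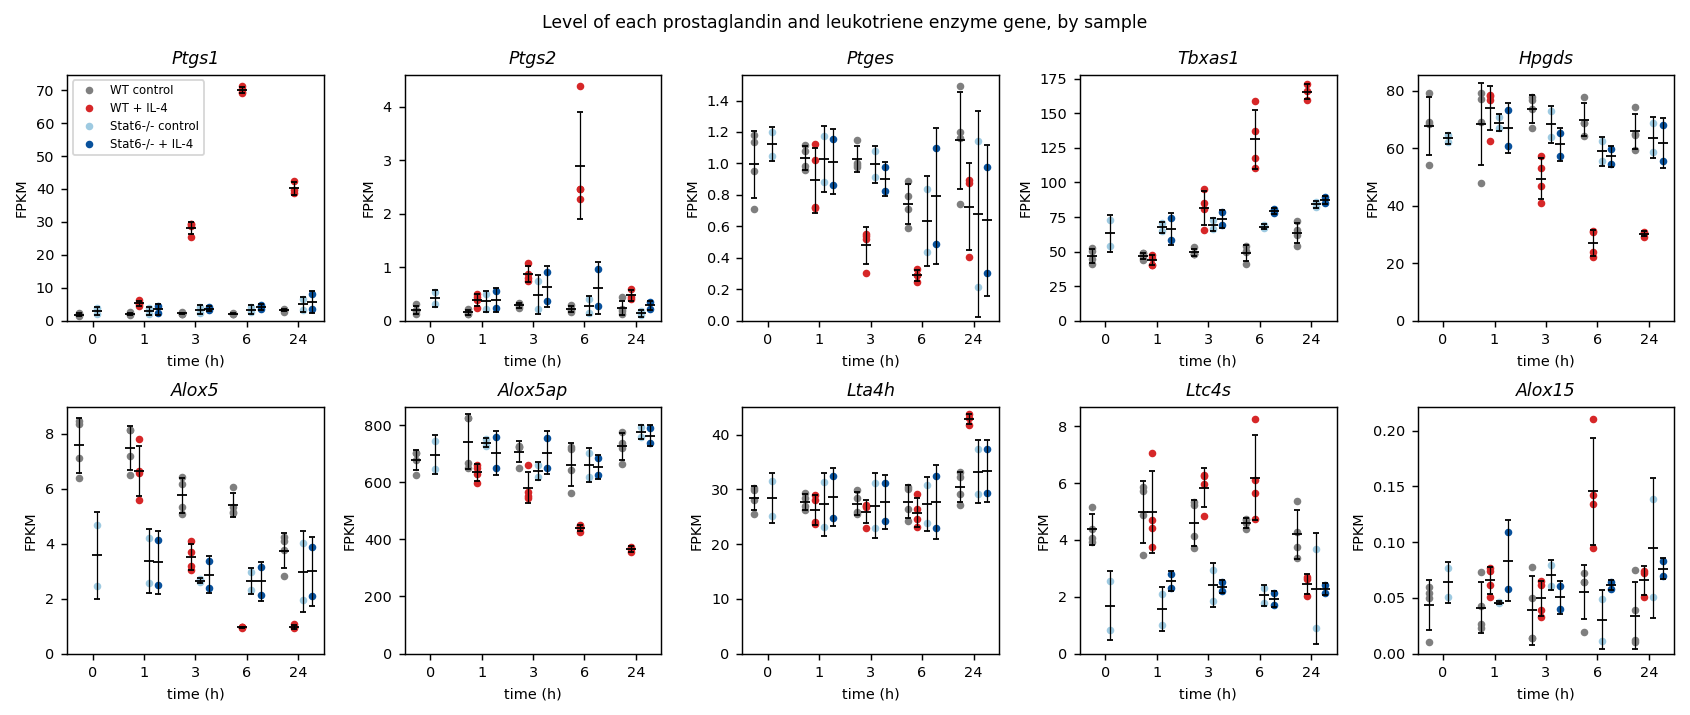
FPKM of each gene (vertical axes, 1 panel per gene, from 0) at 0, 1, 3, 6 and 24 h, in WT controls (grey), WT with IL-4 (red), Stat6-/- controls (light blue) and Stat6-/- with IL-4 (dark blue). Points are samples, and black bars are the mean and SD. Ptgs1 in WT with IL-4 reaches 69.0 to 71.2 FPKM at 6 h, while its 18 Stat6-/- samples stay at or below 8.11 FPKM.

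IL-4 was compared with the control of the same time on log2(FPKM + 1), with limma and adjustment over all tested loci. A gene "passed" at an adjusted p under 0.05 and was "called" when it also changed at least 2-fold on that scale, which understates the change of genes near 1 FPKM. In WT, 1 of the 9 genes passed at 1 h, against 9.39% of all tested loci, 7 at 3 h against 28.9%, 7 at 6 h against 41.2%, and 7 at 24 h against 55%. Each of the 9 passed at 1 or more times, and 5 were called, 3 upward (Ptgs1, Ptgs2 and Tbxas1) and 2 downward (Hpgds and Alox5). The share of all loci that passed or were called at any time is not available. For passing it is at least the 55% of 24 h. Called upward were 1 gene at 1 h (1.09% of loci called upward), 1 after 3 h (2.61%), 3 after 6 h (3.18%) and 2 after 24 h (3.91%). Called downward were 0 after 1 h (0.395% of loci), 0 after 3 h (1.27%), 2 after 6 h (2.36%) and 2 after 24 h (4.58%). The median log2 change of the 9 genes was -0.08, -0.08, -0.10 and -0.32 at the 4 times, against -0.02, 0.01, 0.00 and -0.07 for all tested loci.

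Ptgs1, the cyclooxygenase usually described as constitutive, was the only one of the 9 to pass at 1 h and had the largest changes on the log2 scale. Its 4 WT samples with 1 h of IL-4 were at 5.07, 4.43, 6.14 and 5.42 FPKM, against 2.06, 1.95, 2.58 and 1.89 in the controls. At 3 h the IL-4 samples were at 29.2, 25.4, 29.4 and 28.8 FPKM and the controls at 2.08, 2.16, 2.50 and 2.15. At 6 h they were at 69.4, 69.0, 71.2 and 70.4 FPKM, with controls at 2.15, 1.89, 2.49 and 2.19. Every IL-4 sample thus lay above every control at each of these times, and the level rose from 1 h to 6 h. At 24 h the 3 IL-4 samples were at 42.5, 38.7 and 39.6 FPKM, below all 6 h samples, and the controls were at 3.45, 3.14, 3.23 and 2.70. The log2 changes were 1.00 (SE 0.18, limma adjusted p = 7.59e-05), 3.18 (SE 0.18, 1.61e-17), 4.48 (SE 0.18, 2.79e-22) and 3.32 (SE 0.20, 6.88e-17). The means of FPKM differed 2.49-fold, 12.7-fold, 32.1-fold and 12.9-fold.

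Ptgs2, the inducible cyclooxygenase, also rose but stayed low. Its WT samples with 6 h of IL-4 were at 2.46, 4.38, 2.28 and 2.45 FPKM, against 0.296, 0.216, 0.202 and 0.154 in the controls. These 4 values were its highest of all 53 samples. Outside WT samples with IL-4 it stayed at or below 0.962 FPKM. Its place among the tested and called genes therefore depended on the group where it was high. Its rise on the log2 scale was 0.54 (SE 0.13, limma adjusted p = 0.00108) at 3 h, when the IL-4 mean was 0.870 ± 0.150 FPKM (SD, n = 4), and 1.65 (SE 0.13, 1.32e-13) at 6 h. It was 0.26 at 1 h (adjusted p = 0.246) and 0.25 at 24 h (0.119), and neither passed. At 1 h the IL-4 samples, at 0.241 to 0.507 FPKM, nevertheless all lay above the controls, at 0.118 to 0.224, and the means differed 2.48-fold, a change that the pseudocount compresses at such levels. The fit of only the groups compared passed it at 1 h (adjusted p = 0.0408) and at 24 h (0.0441). At the same 6 h, Ptgs1 was at 70.0 ± 1.00 FPKM (SD, n = 4), so the IL-4 macrophages held between 15.7 and 31.3 times as much Ptgs1 as Ptgs2.

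Of the terminal prostanoid synthases, Tbxas1 (thromboxane synthase) went up and Hpgds (haematopoietic prostaglandin D synthase) went down. Tbxas1 was at 81.0, 65.3, 84.9 and 95.0 FPKM after 3 h of IL-4, against 48.1, 48.3, 48.1 and 53.4 in the controls. At 6 h it was at 118, 111, 137 and 159 FPKM against 40.8, 49.6, 50.6 and 54.3, and at 24 h at 171, 166 and 160 against 61.8, 54.1, 65.9 and 72.1. The IL-4 samples lay above all controls at these 3 times, whereas at 1 h the groups overlapped. In order of time, the log2 changes of Tbxas1 were -0.10 (SE 0.11, limma adjusted p = 0.697), 0.70 (SE 0.11, 1.93e-06), 1.40 (SE 0.11, 1.01e-13) and 1.38 (SE 0.12, 1.75e-12).

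Hpgds was between 40.9 and 57.1 FPKM in the 4 samples with 3 h of IL-4, against 77.9, 76.6, 73.7 and 67.0 in the controls. At 6 h it was at 30.7, 31.4, 23.9 and 22.3 FPKM against 77.9, 68.7, 68.7 and 64.3, and at 24 h at 30.6, 30.8 and 29.2 against 64.5, 74.5, 64.8 and 59.6. At each of these times every IL-4 sample lay below every control. From 1 h to 24 h, the log2 changes of Hpgds were 0.13 (SE 0.13, limma adjusted p = 0.632), -0.58 (SE 0.13, 0.000348), -1.35 (SE 0.13, 1.50e-11) and -1.10 (SE 0.14, 1.26e-08).

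The opposite course of the 2 synthases exchanged their order. The Tbxas1 to Hpgds ratio of FPKM within a sample, which no scaling between samples can alter, was 0.717 ± 0.188 in WT at 0 h (SD, n = 4) and between 0.519 and 1.21 in all 20 WT controls. With IL-4 it was 0.596 ± 0.0964, 1.70 ± 0.497 and 5.06 ± 1.69 after 1, 3 and 6 h (SD, n = 4 each) and 5.49 ± 0.105 after 24 h (SD, n = 3). The 6 h samples ran from 3.53 to 7.13 and the 24 h samples from 5.39 to 5.60. In the 18 Stat6-/- samples, treated or not, the ratio lay between 0.793 and 1.61. The Ptgs1 to Ptgs2 ratio lay between 5.98 and 20.9 in WT controls and between 67.7 and 107 after 24 h of IL-4. By then Ptgs2 had fallen to 0.475 ± 0.0981 FPKM (SD, n = 3), which was 1.98-fold its control mean of that time. Ptgs2 values this low make the second ratio noisy, as its range of 4.59 to 66.8 in the Stat6-/- samples shows.

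**Figure D2:**
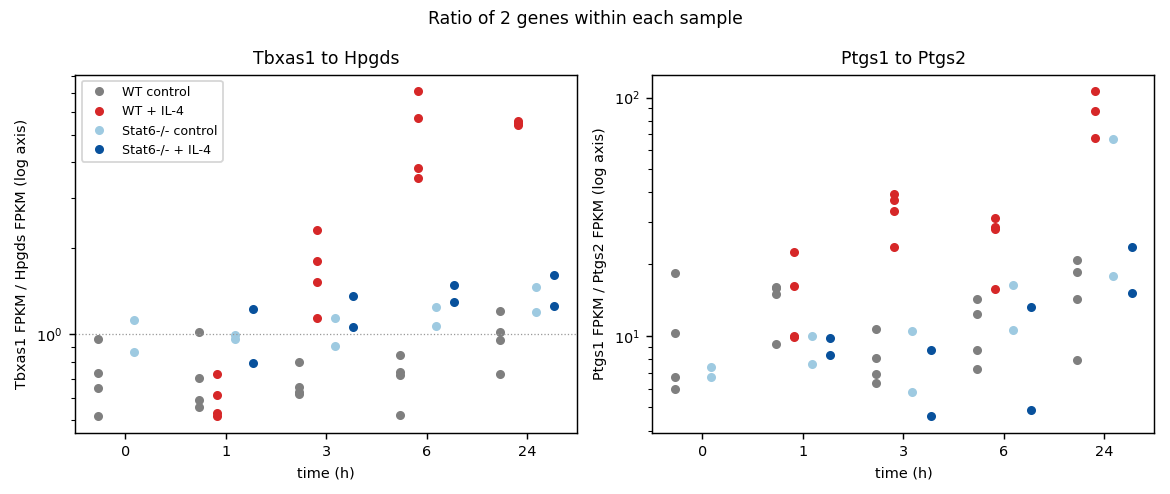
Ratio of Tbxas1 to Hpgds (left) and of Ptgs1 to Ptgs2 (right) within each sample, on log axes, against time in h. Each point is 1 sample, with WT controls in grey, WT with IL-4 in red, Stat6-/- controls in light blue and Stat6-/- with IL-4 in dark blue. The left ratio is at least 3.53 (rounded) in every WT sample with 6 or 24 h of IL-4 and at or below 1.61 in every Stat6-/- sample.

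Ptges, the inducible prostaglandin E synthase, was near 1 FPKM and was lower with IL-4 at 3 and 6 h. The IL-4 samples were at 0.537, 0.303, 0.554 and 0.521 FPKM at 3 h, against 1.15, 0.975, 0.987 and 1.00 in the controls, and at 0.289, 0.244, 0.328 and 0.293 at 6 h, against 0.707, 0.586, 0.886 and 0.793. The log2 changes were -0.46 (SE 0.13, limma adjusted p = 0.00686) and -0.43 (SE 0.13, 0.00783), and at 24 h -0.32 (SE 0.14, 0.0586), which did not pass. The 24 h change passed without IL-4 replicate 3 (0.0461), IL-4 replicate 4 (0.0489) or control replicate 2 (0.0197). Neither of the earlier changes passed in an analysis of variance with Tukey's adjustment (adjusted p = 0.123 and 0.178).

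In the leukotriene branch, Alox5 fell while the genes around it changed less. Alox5 was at 3.71, 3.18, 4.10 and 3.06 FPKM after 3 h of IL-4, against 6.17, 5.08, 6.42 and 5.33 in the controls. At 6 h it was at 0.975, 0.940, 0.980 and 0.962 FPKM against 5.10, 5.32, 6.05 and 5.16, and at 24 h at 1.06, 0.963 and 0.920 against 4.26, 3.78, 4.08 and 2.83. The groups were apart at all 3 times, and the 7 samples with 6 or 24 h of IL-4 were the lowest of all 53. Over the 4 times, the log2 changes of Alox5 were -0.15 (SE 0.16, limma adjusted p = 0.670), -0.58 (SE 0.16, 0.00334), -1.70 (SE 0.16, 1.03e-11) and -1.25 (SE 0.17, 7.59e-08). Part of the smaller change at 24 h lay in the controls, which had fallen from 7.58 ± 0.997 FPKM at 0 h to 3.74 ± 0.635 FPKM (SD, n = 4 each).

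Alox5ap, whose product presents arachidonic acid to 5-lipoxygenase, was among the abundant transcripts and declined slowly. Its log2 changes at the 4 times were -0.22 (SE 0.08, limma adjusted p = 0.108), -0.28 (SE 0.08, 0.00808), -0.58 (SE 0.08, 3.91e-07) and -0.98 (SE 0.09, 1.31e-11). After 24 h of IL-4 the samples were at 375, 356 and 367 FPKM, against 738, 665, 778 and 721 in the controls, which is 50.4% of the control mean. It passed at 3 times without reaching the 2-fold limit, and its change at 3 h did not pass with Tukey's adjustment (adjusted p = 0.0732). Its mean remained the highest of the 10 genes.

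The 2 enzymes that share leukotriene A4 moved apart at 24 h. Lta4h did not pass at 1, 3 or 6 h (log2 changes of -0.08, -0.08 and -0.10) and was higher at 24 h, with IL-4 samples at 43.0, 41.8 and 43.7 FPKM against 29.2, 27.2, 33.2 and 32.2 (log2 change 0.48, SE 0.13, limma adjusted p = 0.00176). Ltc4s did not pass at 1, 3 or 6 h (-0.01, 0.29 and 0.34) and was lower at 24 h, at 2.04, 2.63 and 2.69 FPKM against 5.37, 3.75, 4.28 and 3.38 (log2 change -0.58, SE 0.22, adjusted p = 0.0230). Ltc4s did not pass without WT IL-4 replicate 2 (adjusted p = 0.0993) or WT control replicate 1 (0.0817) of that time. It also did not pass after quantile normalization (0.0692), and Tukey's adjustment kept neither gene (0.0607 for Lta4h and 0.381 for Ltc4s).

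Alox15, whose human counterpart is a classical IL-4 target, was never above 0.210 FPKM and was therefore outside the fit. At 6 h the WT IL-4 samples were at 0.143, 0.0946, 0.210 and 0.134 FPKM and the controls at 0.0645, 0.0644, 0.0724 and 0.0190, without overlap. An exact two-sided permutation test on log2(FPKM + 0.01) gave p = 0.0286, the smallest this design allows, and 0.114 after adjustment over the 4 times. In Stat6-/- cells the 6 h samples did not overlap either, at 0.0579 and 0.0643 FPKM with IL-4 and 0.0491 and 0.0117 without. The Stat6-/- groups were also apart at 1 h, at 182% of the control mean, and in the other direction at 3 h, at 71.6%. They overlapped at 24 h. With 2 samples on each side, such gaps are common without any effect. In WT the exact permutation p was 0.0857, 0.400 and 0.200 at 1, 3 and 24 h. Values this low rest on few fragments, whose number is unknown.

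**Figure D3:**
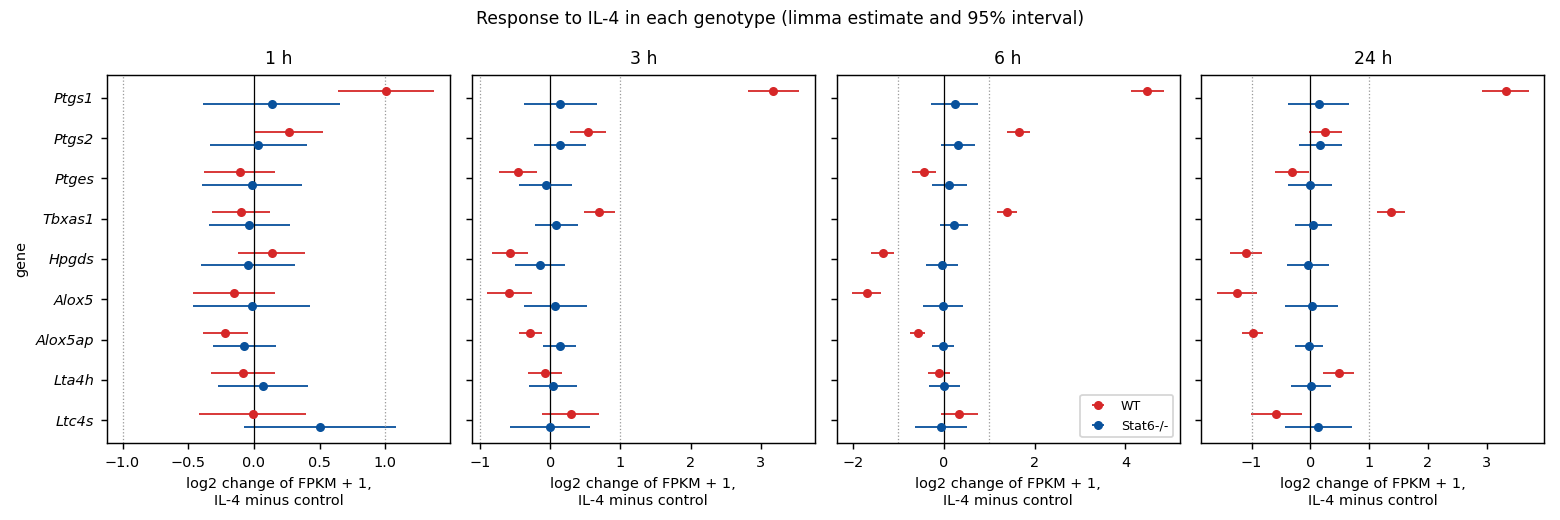
Change with IL-4 on log2(FPKM + 1) for the 9 tested genes (vertical axis) at 1, 3, 6 and 24 h (1 panel each, with its own horizontal axis), in WT (red) and Stat6-/- (blue). Points are limma estimates, bars their 95% intervals, and dotted lines the 2-fold limits. Ptgs1 reaches 4.48 in WT at 6 h, and all 36 Stat6-/- estimates lie between -0.15 and 0.50.

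The response also changed with time within WT. From 1 h to 3 h, 1 gene was called for a change in response, against 1.61% of loci, from 3 h to 6 h 3 genes against 0.449%, and from 6 h to 24 h 2 genes against 6.06%. Ptgs1 gained 2.17 (SE 0.26, limma adjusted p = 4.93e-08) and then 1.30 (SE 0.26, 0.00119) on the log2 scale, and between 6 h and 24 h its response fell by 1.16 (SE 0.27, 0.000934). Ptgs2 gained 1.11 between 3 h and 6 h (SE 0.18, 9.14e-05), and after that its response fell by 1.39 (SE 0.19, 3.10e-07). The response of Alox5 moved by -1.12 between 3 h and 6 h (SE 0.22, 0.00116). Tbxas1 and Hpgds passed in both early steps, with differences of 0.80 and 0.70 for Tbxas1 and of -0.71 and -0.77 for Hpgds, and neither passed between 6 h and 24 h (-0.02 and 0.25). The late step also held 3 genes that had not passed before it, Alox5ap (-0.41, adjusted p = 0.0115), Lta4h (0.59, 0.0102) and Ltc4s (-0.92, 0.0171), of which Alox5ap was lost with median scaling (0.0728) and Ltc4s without WT IL-4 replicate 2 of 24 h (0.0550).

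The need for STAT6 was examined by giving the same IL-4 to Stat6-/- cells. No gene of the 9 passed at 1, 3, 6 or 24 h in limma, and 0% of all tested loci did at each time, while 51, 131, 88 and 37 of the 11146 loci had an unadjusted p under 0.05. Each count is a smaller share of the loci than the 0.05 expected with no response at all. The test was therefore conservative in these cells, and its lack of small p-values says little. Of the 36 values for the 9 genes (4 times each) 0 had an unadjusted p under 0.05, and 0 passed in the analysis of variance with Tukey's adjustment. The estimates lay between -0.15 (Hpgds at 3 h) and 0.50 (Ltc4s at 1 h), and their 95% intervals between -0.63 and 1.08. For Ptgs1 the estimates lay between 0.13 and 0.24 with intervals from -0.39 to 0.76, for Tbxas1 intervals ran from -0.35 to 0.53, for Hpgds from -0.51 to 0.32 and for Alox5 from -0.46 to 0.52. At 6 h, Stat6-/- replicates 1 and 2 held Ptgs1 at 3.53 and 4.70 FPKM with IL-4 and at 2.52 and 4.27 without. For Ptgs2 the estimates lay between 0.03 and 0.31 with intervals from -0.34 to 0.68, and its level was higher with IL-4 in 8 of 8 same-numbered pairs, for example 0.266 against 0.154 and 0.962 against 0.405 FPKM at 6 h. That count was 7 of 8 for Ptgs1 and Tbxas1, 6 for Lta4h and 2 to 5 for the rest. No such count is available over all loci, and what a number marks is not stated. Tbxas1 at 6 h was at 77.7 and 81.1 FPKM with IL-4 against 69.3 and 66.9, without overlap. With 2 samples per group, changes within these 95% intervals are compatible with the data, and small responses without STAT6 are not excluded.

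The difference between the responses of the genotypes was tested as an interaction. At 1 h 0 of 9 genes were called, against 1.25% of loci, at 3 h 1 against 3.48%, at 6 h 5 against 4.41%, and at 24 h 4 against 6.85%. Ptgs1 differed by 3.04 (SE 0.31, limma adjusted p = 1.21e-09) at 3 h, 4.24 (SE 0.31, 1.83e-13) at 6 h and 3.18 (SE 0.32, 1.07e-09) at 24 h. Its difference of 0.87 at 1 h did not pass (SE 0.31, 0.165). At 6 h Ptgs2 (1.34, adjusted p = 1.87e-05), Tbxas1 (1.18, 8.52e-06), Hpgds (-1.31, 1.78e-05) and Alox5 (-1.69, 9.01e-06) were called with it. At 24 h Tbxas1 (1.33, 1.78e-06), Hpgds (-1.05, 0.000421) and Alox5 (-1.27, 0.000600) were called.

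Smaller differences also passed for Alox5ap, at 6 h (-0.57, limma adjusted p = 0.00434) and 24 h (-0.96, 5.68e-06), and for Tbxas1 at 3 h (0.61, 0.0252). Those of Lta4h (0.48, 0.0883), Ltc4s (-0.72, 0.134) and Ptges (-0.31, 0.350) at 24 h did not. These 3 depended on the samples: Lta4h passed with median scaling (0.0349) and without Stat6-/- IL-4 replicate 1 (0.0329) or control replicate 2 (0.0304), Ltc4s without Stat6-/- control replicate 2 (-1.37, 0.00252), and Ptges without Stat6-/- control replicate 1 (-0.72, 0.0382). The Tbxas1 difference at 3 h was lost when WT IL-4 replicate 4 (0.0631), Stat6-/- IL-4 replicate 1 (0.135) or Stat6-/- control replicate 2 (0.125) was left out, and that of Alox5ap at 6 h without Stat6-/- control replicate 1 (0.0546).

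Loss of STAT6 also went with other levels before any IL-4. Over the 5 control times, 4 of 9 genes passed between genotypes, against 21.4% of loci. Ltc4s was lower in Stat6-/- on the log2 scale, at -0.94 relative to WT (SE 0.11, limma adjusted p = 5.40e-08) and so was Alox5, at -0.78 (SE 0.09, 1.20e-08), while Tbxas1 (0.46, SE 0.06, 3.40e-07) and Ptgs1 (0.42, SE 0.10, 0.00196) were higher. The 20 WT controls ranged from 3.38 to 5.87 FPKM for Ltc4s, with a median of 4.48, and the 10 Stat6-/- controls from 0.826 to 3.68, with a median of 1.98. For Alox5 the ranges were 2.83 to 8.47 (median 6.11) and 1.94 to 4.69 (median 2.66), for Tbxas1 40.8 to 72.1 (median 49.2) and 53.8 to 86.0 (median 69.9), and for Ptgs1 1.38 to 3.45 (median 2.16) and 2.06 to 6.56 (median 3.62). The ranges overlapped for all 4 genes.

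Samples of 1 replicate number were alike in the Stat6-/- groups, and a fit that treats all control samples as separate may overstate the evidence. With 1 value per number, averaged over the 5 times, Alox5, Ltc4s and Tbxas1 did not overlap between the 2 Stat6-/- and 4 WT numbers, and an exact two-sided permutation test gave its smallest possible p of 0.0667 for each. Ptgs1 overlapped (exact permutation p = 0.133), because Stat6-/- replicate 2 was above replicate 1 in 9 of 9 groups (3.84 to 8.11 against 2.06 to 3.53 FPKM). Hpgds did not overlap either (0.0667), with a difference of only -0.09. At 0 h alone, 2 genes passed, against 2.18% of loci, namely Alox5 (-0.95, SE 0.19, limma adjusted p = 0.00363) and Ltc4s (-1.07, SE 0.25, 0.0141). Both were lost without Stat6-/- replicate 2 of that time, with changes of -0.59 each and adjusted p of 0.537 and 0.747.

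Of the macrophage markers, Emr1 (0.38 on the log2 scale) and Itgam (0.41) passed as higher in Stat6-/- controls. Csf1r, Cd68, Mertk and Fcgr1 did not pass. Markers of other cells moved with genotype as well. All 7 neutrophil markers that were listed passed as higher in Stat6-/- controls, where their summed level was 597 to 1088 FPKM, against 314 to 631 in WT controls. The sum of 5 eosinophil markers was 10.3 to 14.7 against 4.61 to 10.9 FPKM, that of 5 platelet and megakaryocyte markers 1.92 to 3.63 against 0.856 to 2.22, and that of 8 mast cell and basophil markers 2.22 to 3.72 against 1.05 to 2.06. Of the mast cell markers, Cma1 and Tpsb2 were listed at 0 in all 53 samples. The part of such cells in the genotype differences of Alox5, Ltc4s, Tbxas1 and Ptgs1 was not tested. In RNA from whole cultures, fewer cells of a type and less RNA per cell cannot be told apart.

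The same neutrophil markers were lower in WT after 24 h of IL-4, at a sum of 226 to 328 FPKM against 454 to 631 in the controls, and 5 of 7 passed. Alox5, Alox5ap and Ltc4s, which neutrophils or eosinophils also express, were lower at that time too, and the part of these cells in the 24 h decreases was not tested. The eosinophil marker Siglec5 was higher at 24 h (0.77, limma adjusted p = 1.31e-11), and Prg2 (-0.51) and Ccr3 (-0.34) did not pass. At 6 h, 0 of the 7 neutrophil markers passed, and their median log2 change was 0.00. Of 3 tested eosinophil markers, Ccr3 was lower at 6 h (-0.72, limma adjusted p = 0.000367), and Prg2 (-0.02) and Siglec5 (-0.02) did not pass. The part of eosinophils in the 6 h decrease was not tested. The summed macrophage markers were at 2604 to 2626 FPKM with 24 h of IL-4 against 3274 to 3773 in the controls. Of these 6 markers, Emr1 (-1.20), Mertk (-1.89) and Fcgr1 (-2.34) were called lower in limma at 24 h, and Csf1r (-0.61) passed as lower. Cd68 (0.16) and Itgam (-0.21) did not pass. At 6 h Mertk was called lower (-1.28), Itgam passed as lower (-0.52), and the other macrophage markers did not pass.

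Some of the genes also changed with culture time alone. Between 0 h and 24 h, 3 of 9 passed in WT controls, against 17.2% of loci. Alox5 fell by 0.86 on the log2 scale (SE 0.16, limma adjusted p = 0.000132), while Ptgs1 (0.53, SE 0.18, 0.0399) and Tbxas1 (0.42, SE 0.11, 0.00588) rose. Ptgs1 no longer passed in 6 of the 8 fits that leave out 1 of these samples, with the largest adjusted p, 0.121, without replicate 4 of 0 h. In Stat6-/- controls 0 of 9 passed in limma, against 0.718% of loci, with estimates of 0.57 for Ptgs1 (adjusted p = 0.287), 0.42 for Tbxas1 (0.186) and -0.21 for Alox5 (0.687).

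For each called gene, the 3 loci with the most similar course over the 18 group means of log2(FPKM + 1) were listed by Pearson's r, as a description that carries no test. Ptgs1 was followed by Reep3 (r = 0.99), Gspt1 (0.98) and Il4i1 (0.98), and Ptgs2 by Etv5 (0.95), Stxbp6 (0.94) and Abcg8 (0.93). For Tbxas1 they were Tfrc (0.96), Atf5 (0.96) and Tifab (0.95). For the 2 genes that fell they were Fam134b (0.97), Nt5dc2 (0.96) and Zfand4 (0.96) beside Hpgds, and Stom (0.97), Atp8b4 (0.97) and Atp2b4 (0.96) beside Alox5. The group means share 1 time course and 1 knockout, so high values are common.

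The rest of the eicosanoid pathway was described from 62 further genes, of which 36 were tested. In WT 4, 11, 18 and 20 of them passed at the 4 successive times, of which 4, 8, 8 and 7 were higher and 0, 3, 10 and 13 lower. These counts stand beside the 9.39%, 28.9%, 41.2% and 55% of all loci. Their median log2 change was -0.02, -0.07, -0.14 and -0.11. In Stat6-/- 0 of the 36 passed at any time in limma. The response of 10 of the 11 genes called in WT differed between genotypes at the time of their largest change, and that of Pla2g4a did not pass (0.82, limma adjusted p = 0.0916). Genes and times were selected by the WT response, which is part of this difference. The count is therefore no separate evidence of a need for STAT6. The 11 genes are described by their step in the pathway, at the time of their largest change.

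Upstream, 11 genes for phospholipases and fatty acid supply were tested, of which 3, 2 and 3 were higher and 2, 4 and 4 lower at 3, 6 and 24 h. Over all loci, 28.9%, 41.2% and 55% passed at these times. Pla2g4a, the cytosolic phospholipase A2 that feeds the cyclooxygenases, rose from 8.90 ± 1.43 to 20.4 ± 5.55 FPKM at 6 h (SD, n = 4 each, log2 change 1.09, limma adjusted p = 1.44e-05). Pla2g15, a lysosomal phospholipase, rose from 74.5 ± 1.38 to 205 ± 26.7 FPKM at 3 h (1.44, adjusted p = 4.41e-16). Lpcat2, an acyltransferase that makes platelet-activating factor, fell from 41.7 ± 5.00 (SD, n = 4) to 11.1 ± 0.405 FPKM (SD, n = 3) at 24 h (-1.81, 6.97e-13).

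Downstream are genes that remove or modify the products. Hpgd, which inactivates prostaglandins, fell from 52.4 ± 4.12 (SD, n = 4) to 3.76 ± 1.80 FPKM (SD, n = 3) at 24 h, which at -3.57 on the log2 scale was the largest change of the 36 genes (SE 0.51, limma adjusted p = 2.07e-07). Its Stat6-/- samples of that time were at 41.1 ± 16.6 and 35.2 ± 8.98 FPKM without and with IL-4 (SD, n = 2 each), and the genotypes differed (-3.39, adjusted p = 0.00209). Fam213b, a prostamide and prostaglandin F synthase, fell from 34.7 ± 5.95 (SD, n = 4) to 11.5 ± 1.62 FPKM (SD, n = 3) at 24 h (-1.51, 9.33e-10). Ggt5, which converts leukotriene C4 to D4, was at 1.33 ± 0.490 FPKM in 6 h controls and rose with IL-4 to 5.38 ± 0.944 (SD, n = 4 per group, log2 change 1.46, 1.90e-08) and was lower than its control at 24 h (-0.66, 0.00487).

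Of 9 receptors tested, 4 were higher and 4 lower at 6 h, where 41.2% of all loci passed, and 3 higher and 4 lower at 24 h, where 55% did. Ltb4r1, the high-affinity leukotriene B4 receptor, rose from 1.08 ± 0.127 (SD, n = 4) to 11.3 ± 3.69 FPKM (SD, n = 3) at 24 h (log2 change 2.52, SE 0.22, limma adjusted p = 3.73e-12), and Ptgir, the prostacyclin receptor, from 10.4 ± 0.673 to 26.5 ± 1.29 FPKM at 6 h (SD, n = 4 each, 1.27, 4.10e-11). Fpr2, which binds lipoxin A4 among other ligands, fell from 14.0 ± 4.80 (SD, n = 4) to 0.621 ± 0.0779 FPKM (SD, n = 3) at 24 h (-3.15, 1.66e-05). Ptger4, a prostaglandin E2 receptor, and Cysltr1, a cysteinyl leukotriene receptor, fell by 1.49 (0.000794) and 1.09 (0.000180) at that time. Both Fpr2 replicates of Stat6-/- controls at 24 h were far apart (7.55 and 79.4 FPKM).

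**Figure D4:**
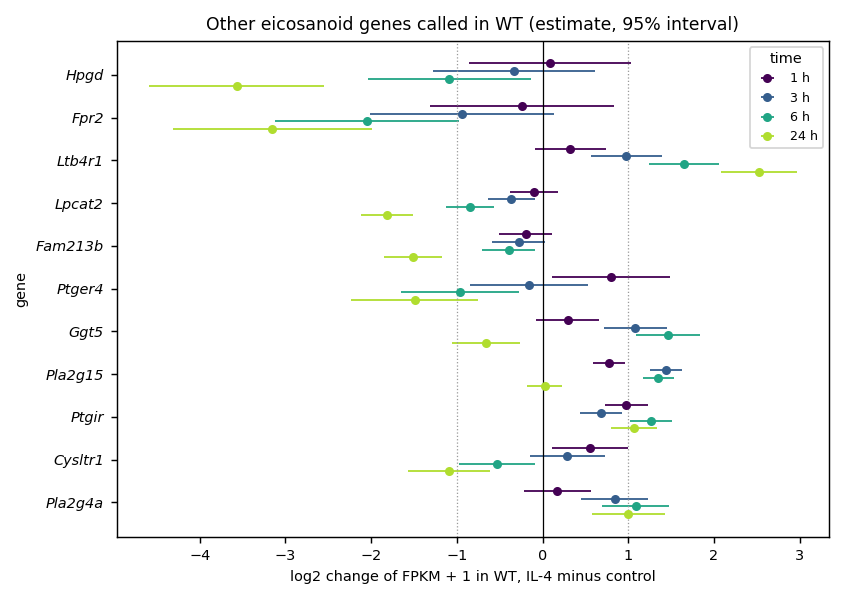
Change with IL-4 in WT on log2(FPKM + 1) (horizontal axis) for the 11 further eicosanoid genes that were called (vertical axis), at 1, 3, 6 and 24 h (colours). Points are limma estimates, bars their 95% intervals, and dotted lines the 2-fold limits. Hpgd is lowest at 24 h (-3.57), Ltb4r1 highest (2.52), and Pla2g15 is near 0 at 24 h (0.02).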

How the data were processed

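Poly(A)-selected RNA was sequenced from 35 WT and 18 Stat6-/- BMDM samples. Per the submitters' processing notes, the authors aligned reads to mm10 with TopHat2 2.0.7 and Cufflinks 2.0.2 computed the deposited values, 1 FPKM table of 23847 loci per sample. FPKM is scaled within a sample, so a rise of abundant transcripts lowers all others. It holds no counts, so no count test was run, and the absolute depth is unknown.

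The 5654 values below 0.0001 were set to 0. Values were analysed as log2(FPKM + 1), and the 11146 loci that reached 1 FPKM in any sample entered 1 limma fit (R 4.3.3, limma 3.58.1) over 18 groups, with 35 residual degrees of freedom. Contrasts were IL-4 against control at each time, their differences between genotypes and between times, genotype in controls, and 24 h against 0 h in controls. P-values were adjusted over all tested loci by the Benjamini-Hochberg method. "Passed" means an adjusted p under 0.05, and "called" also an absolute log2 change of at least 1. Alox15, below the filter, was tested with an exact permutation test. The fit was tested on simulated data.

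The 10 genes, the pathway and marker lists and the tests were chosen with earlier results of these data known. Named were all 10 genes, Stat6, every listed eicosanoid gene called with IL-4 in WT, and the 3 loci most correlated with each called gene. Alternatives were another pseudocount, low-value filters, quantile and median scaling, fits of the compared groups alone, a replicate block, an analysis of variance with Tukey's adjustment, and leaving out each sample. Same-numbered WT samples, 1 with IL-4 and 1 control of the same time, deviated together in 13 of 15 pairs (r over 0.1) and not in all. Same-numbered Stat6-/- samples did so too (r from 0.79 to 0.90). The 2 samples of a group deviate in mirror image, so only 4 of these values are distinct. Only 2 numbers exist there and nothing says what a number marks, so numbers were not treated as pairs. RefSeq and GENCODE sequences were searched for motifs, exon overlap and shared 50-base words.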

Additional observations from a re-analysis of the deposited data

Results flagged for a closer look

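Of 80 sets of 4 WT samples, 8 held a sample far from the other 3 by Dixon's test, where chance gives about 4. Replicate 2 was the distant sample at 3 h of IL-4 for Ptgs1 (25.4 FPKM, others 28.8 to 29.4), Ptges (0.303, others 0.521 to 0.554) and Lta4h (22.8, others 26.8 to 27.1), and at 6 h of IL-4 for Ptgs2 (4.38, others 2.28 to 2.46). Replicate 4 was distant in the 3 h controls for Alox5ap (652 FPKM, others 725 to 726) and Tbxas1 (53.4, others 48.1 to 48.3), and in the 6 h controls for Alox15 (0.0190, others 0.0644 to 0.0724). Replicate 3 was distant at 1 h of IL-4 for Hpgds (62.6 FPKM, others 76.7 to 78.5).

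The response to IL-4 differed between WT and Stat6-/- cells in 13 of the 36 interaction tests (limma, adjusted p under 0.05). Over all loci, 374, 1248, 1837 and 3008 of 11146 passed the interaction test at 1, 3, 6 and 24 h. In log2 units, WT minus Stat6-/-, the difference was 3.04, 4.24 and 3.18 for Ptgs1 and 0.61, 1.18 and 1.33 for Tbxas1 at 3, 6 and 24 h. For Ptgs2 it was 1.34 at 6 h. At 6 and 24 h it was -1.31 and -1.05 for Hpgds, -1.69 and -1.27 for Alox5, and -0.57 and -0.96 for Alox5ap.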

How the results depend on the processing

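No value changed sign where it was called. Counts are of genes that passed. With the replicate number within genotype as a replicate block, 2 of the 9 tested enzyme genes passed with IL-4 in WT at 1 h in place of 1 (Alox5ap, limma adjusted p = 0.0491, was added), 10 of the 36 other eicosanoid genes in place of 4, 1 interaction at 1 h in place of 0 (Ptgs1, 3.63e-05), and 4 genes between 0 h and 24 h in Stat6-/- controls in place of 0. Ptges in WT at 24 h (-0.30, 0.00722) and the Lta4h interaction at 24 h (0.46, 2.51e-05) also passed, while 0 genes passed with IL-4 in Stat6-/- at any time. In all, 12 single-gene values of the 63 in that fit newly passed and none was lost, and the labels do not say whether numbers mark animals. Fits of only the groups compared gave 2 genes in WT at 1 h, 7 and 19 other eicosanoid genes at 1 and 3 h (main 4 and 11), 0 genotype differences at 0 h (main 2) and 5 changes of response from 1 h to 3 h (main 3). The analysis of variance with Tukey's adjustment gave 6 and 9 other eicosanoid genes at 3 and 6 h (main 11 and 18). With 1 value per replicate number, an alternative chosen after seeing the data, 0 genotype differences in controls could pass, since the smallest exact permutation p was 0.0667. Leaving out 1 sample gave 1 to 2 genes in WT at 1 h (2 without control replicate 4), 0 to 1 interactions at 1 h (1 without Stat6-/- IL-4 replicate 2, Ptgs1), 1 to 3 at 3 h, 0 to 2 genotype differences at 0 h and 0 to 1 changes in Stat6-/- controls (Ptges, without replicate 1 of 24 h). The count of 1 at 3 h came without WT IL-4 replicate 4 or Stat6-/- control replicate 2. Of the single-gene values with a sample left out, 664 kept their side of the threshold, 15 lost it and 14 gained it. Ptgs2 at 24 h in WT also passed with a pseudocount of 0.1 (0.82, adjusted p = 0.0437) and after quantile normalization (0.0183). The causes of these shifts were not tested. FPKM without counts limits what can be said of Alox15, Ptgs2 and Ptges, the lowest genes.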
